A study of Mus musculus with 12 samples.

Results

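The genes described here are the 33 that make, conjugate and carry bile acids in the liver or regulate that work, a set defined by function and listed by gene symbol. Symbols were assigned from the deposited Ensembl identifiers, and all 33 were found among 55385 identifiers. Of these, 28 passed the filter on low counts and were tested, and 5 (Cyp7a1, Cyp8b1, Slco1a1, Slc51a and Slc51b) were not. By role the set holds 4 hydroxylases of sterols and oxysterols, 6 enzymes of the sterol ring and side chain and 3 enzymes of activation and conjugation. It also holds 5 uptake carriers of the sinusoidal membrane, 6 transporters of the canalicular membrane, 5 carriers of basolateral efflux and 4 regulators.

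Hepatocytes were freshly isolated from 3 mice, plated on collagen and transfected with small interfering RNAs (siRNAs) for 48 h, and total RNA was sequenced in 12 libraries. The 4 groups received siRNAs against both Hnf4a and Cebpa (the double knockdown), Hnf4a alone (siHnf4a), Cebpa alone (siCebpa) or a control siRNA (siCon). With the number in the sample title read as the mouse, every mouse gave 1 library to each group. All cultures, siCon included, were kept in Williams' E medium with dexamethasone at 100 nM, 10% FBS, 5% ITS, glutamine at 2 mM and 1% P/S. The sources used here do not give the strain, genotype or age of the mice or the siRNA sequences.

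Bile acids are made from cholesterol in hepatocytes by hydroxylation, rearrangement of the sterol ring and shortening of the side chain in peroxisomes, and are then joined to taurine or glycine. Carriers of the sinusoidal membrane take them up from blood, ATP-driven pumps of the canalicular membrane secrete them into bile, and basolateral pumps return them to blood when bile flow is impaired. The nuclear receptor FXR, encoded by Nr1h4, senses bile acids and limits their synthesis through SHP, encoded by Nr0b2, and through intestinal FGF15 acting on FGFR4 and beta-Klotho in the liver. HNF4A belongs to the nuclear receptors and CEBPA to the basic leucine zipper factors, and both bind many genes that mark mature hepatocytes.

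Libraries held 22453445 to 25008195 estimated counts, and mitochondrially encoded transcripts took 2.34% to 4.04% of them. Hnf4a averaged 35.9 ± 3.67 CPM (counts scaled to library size after TMM normalisation) in the double knockdown, 54.1 ± 6.80 with siHnf4a, 211 ± 74.0 with siCebpa and 229.6 ± 78.0 with siCon (SD, n = 3 each). Cebpa averaged 94.2 ± 13.1 CPM in the double knockdown, 214 ± 17.0 with siHnf4a, 30.0 ± 3.81 with siCebpa and 193 ± 16.2 with siCon. The Cebpa siRNA left more Cebpa RNA in the double knockdown (log2 fold change against siCon -1.03 ± 0.12, adjusted p = 0.000441) than alone (-2.68 ± 0.13, adjusted p = 7.05e-06), and the interaction term was 1.50 ± 0.18 (adjusted p = 0.0131). All 10 hepatocyte markers checked, among them Alb, Hpx and Apoa1, were detected in every group. Their summed level was 10410 to 14330 CPM in the double knockdown, 12980 to 19480 with siHnf4a, 12230 to 25280 with siCebpa and 17210 to 22390 with siCon. Markers of stellate cells and fibroblasts summed to 87.2 to 146 CPM in the double knockdown, 97.1 to 139 with siHnf4a, 88.1 to 167 with siCebpa and 149.6 to 177 with siCon. Kupffer cell markers summed to 93.3 to 355 CPM in the double knockdown, 96.1 to 422 with siHnf4a, 59.2 to 370.5 with siCebpa and 83.5 to 262 with siCon. Of the 13 genes on that list Cd68 averaged 169 CPM, Lyz2 averaged 2.58 CPM and the other 11 averaged under 1 CPM. Of these 13 genes 10 were tested, and 0 passed the threshold of 0.05 against siCon in any knockdown group in edgeR. With mouse as a block 5 were lower in the double knockdown, 3 with siHnf4a and 3 with siCebpa. Of all tested genes 15.6%, 15.5% and 8.11% were lower in that fit. Of 8 tested cholangiocyte markers 5, 4 and 4 were lower there, and 0, 1 and 0 higher. Of 10 hepatocyte markers 5, 2 and 3 were lower, and 2, 4 and 0 higher. Of 10 sinusoidal endothelium markers 3, 1 and 2 were lower, and of 10 stellate and fibroblast markers 2, 3 and 0. Without the block, in the same order, 3, 2 and 0 hepatocyte markers were lower and 1, 2 and 0 higher. Of cholangiocyte markers 2, 2 and 1 were lower and 0, 1 and 0 higher. Endothelial markers had 1, 0 and 0 lower and stellate markers 0, 1 and 0, beside 7.13%, 7.29% and 1.72% of all tested genes. Of the cholangiocyte markers Krt7 averaged 0.220 CPM and Cftr 0.00336 CPM. The part of these shifts in the results was not tested, and in bulk RNA fewer cells of a type and less RNA per cell cannot be told apart.

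Promoter windows of 5 members are shown as the regulatory sequence of genes with contrasting results: Abcb4, which rose, Abcg2, which fell, Slc10a1 and Abcb11, whose call depended on the fit, and Cyp8b1, which was barely detected. RefSeq (GRCm38.p6) gave windows from 250 bases before to 50 after the start for 24 of the 33 members; Cyp7a1, Cyp7b1, Amacr, Hsd17b4, Slc27a5, Baat, Atp8b1, Abcc3 and Abcc6 had no entry. The words searched on both strands were CAAAGTCCA and its relaxed form CAAAGNNCA for HNF4, TTGCNNAA for C/EBP, GNCANTGNC for FXR and CAAGGTCA for LRH-1. The first word is a case of the second. Where several starts were listed, a window that held a searched word was chosen for printing over any that held none. Capitals mark the words found, positions count from the start, and each line runs 5′ to 3′ along the gene's strand.
Abcb4, chr5:8893471-8893770, plus strand: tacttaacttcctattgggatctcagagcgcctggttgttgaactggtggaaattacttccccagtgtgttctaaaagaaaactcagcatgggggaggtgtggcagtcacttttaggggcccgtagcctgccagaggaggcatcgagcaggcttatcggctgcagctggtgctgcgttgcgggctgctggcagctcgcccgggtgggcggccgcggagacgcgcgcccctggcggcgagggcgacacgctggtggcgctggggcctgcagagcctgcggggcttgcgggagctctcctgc
Abcg2, chr6:58584283-58584582, plus strand: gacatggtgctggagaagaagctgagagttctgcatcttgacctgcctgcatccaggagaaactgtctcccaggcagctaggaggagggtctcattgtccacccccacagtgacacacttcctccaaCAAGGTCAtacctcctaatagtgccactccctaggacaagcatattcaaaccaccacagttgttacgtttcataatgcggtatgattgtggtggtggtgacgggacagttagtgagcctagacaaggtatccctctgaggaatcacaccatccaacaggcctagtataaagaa
Slc10a1, chr12:80968656-80968955, minus strand: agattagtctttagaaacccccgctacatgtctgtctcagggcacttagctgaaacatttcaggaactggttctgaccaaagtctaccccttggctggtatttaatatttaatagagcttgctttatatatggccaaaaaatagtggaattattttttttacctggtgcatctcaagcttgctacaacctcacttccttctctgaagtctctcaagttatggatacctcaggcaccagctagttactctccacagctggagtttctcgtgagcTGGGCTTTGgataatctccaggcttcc
Abcb11, chr2:69342567-69342866, minus strand: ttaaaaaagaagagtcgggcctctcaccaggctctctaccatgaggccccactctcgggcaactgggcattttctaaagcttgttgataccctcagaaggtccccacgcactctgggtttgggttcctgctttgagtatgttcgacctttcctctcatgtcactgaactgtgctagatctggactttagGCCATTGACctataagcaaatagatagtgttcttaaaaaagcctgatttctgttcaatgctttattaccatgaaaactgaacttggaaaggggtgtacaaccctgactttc
Cyp8b1, chr9:121916256-121916555, minus strand: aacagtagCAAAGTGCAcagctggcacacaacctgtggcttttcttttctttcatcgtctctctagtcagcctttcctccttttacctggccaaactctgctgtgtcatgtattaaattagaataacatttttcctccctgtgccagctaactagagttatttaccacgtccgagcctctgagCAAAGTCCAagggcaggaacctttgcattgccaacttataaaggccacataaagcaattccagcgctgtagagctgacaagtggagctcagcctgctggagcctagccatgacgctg
The Abcb4 window held none of these words. Abcg2, with 3 listed starts, held CAAGGTCA at -123, a word present in 1.56% of 32851 mouse promoter windows. In Slc10a1, with 2 listed starts, the relaxed HNF4 word lay on the other strand at 24, and in Abcb11 the FXR word lay at -61. Cyp8b1 held CAAAGTCCA at -67 and a second relaxed HNF4 word at -242. The strict HNF4 word occurred in 0.475% of windows and in 1 of the 24 members, and the relaxed one in 6.36% of windows and in 4 members (Abcb1a, Cyp8b1, Hsd3b7 and Slc10a1). Members are counted with a word at any listed start, while the shares are of single windows, so the counts and shares are not alike. The C/EBP word occurred in 10.8% of windows and in 4 members (Abcc4, Acox2, Akr1d1 and Slc10a1, in Slc10a1 at the start not printed here), and the FXR word in 8.77% and in 3 (Abcb11, Acox2 and Slco1b2). A match describes the letters of the window only.

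In control cultures Scp2, Abcc3, Cyp27a1 and Acox2 had the highest levels of the module, and Slco1a1 and Cyp7a1 the lowest. Levels between genes are compared as TPM, which scale counts by transcript length and library size. In siCon, Scp2 averaged 207 ± 29.2 TPM, Abcc3 123.5 ± 8.66, Cyp27a1 76.4 ± 12.5 and Acox2 62.9 ± 8.89 (SD, n = 3). At the other end, Slc10a1 averaged 3.62 ± 1.30 TPM, Abcb11 1.50 ± 0.356, Cyp8b1 0.208 ± 0.108 and Cyp7a1 0.0818 ± 0.0480. Only Scp2 and Abcc3, Abcc3 and Cyp27a1, Hsd17b4 and Hsd3b7, and Slc27a2 and Abcb4 were neighbours in this order whose 3 libraries did not overlap.

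**Figure D1:**
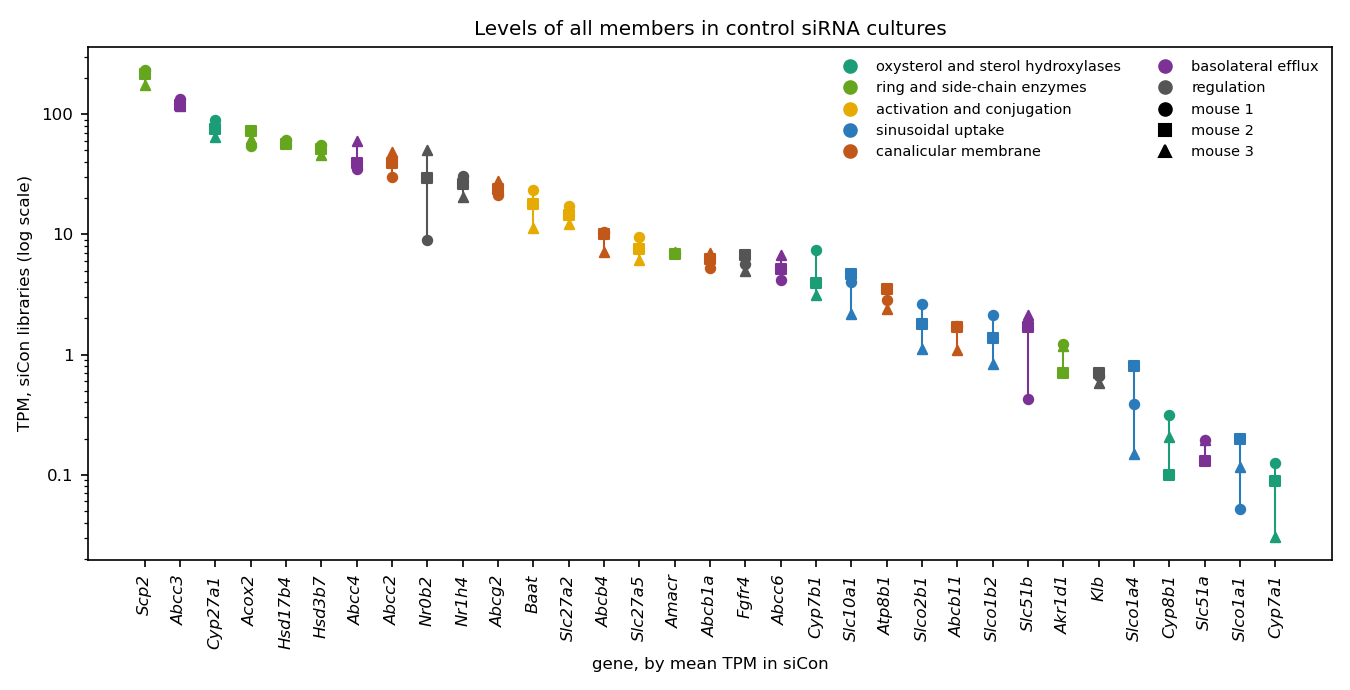
Level of all 33 members in the 3 siCon libraries (y axis, TPM on a log scale), ordered by mean and coloured by role, with 1 marker shape per mouse and a line over the range. Scp2 leads at 207 TPM and Cyp7a1 comes last at 0.0818 TPM.

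With Hnf4a siRNA, alone or together with Cebpa siRNA, the conjugating enzymes Baat and Slc27a5 and the transporters Abcc6 and Abcg2 fell, and the phospholipid transporter Abcb4 and the basolateral pump Abcc3 rose. Differences were tested with edgeR's quasi-likelihood test, with Benjamini-Hochberg adjustment over all 15090 tested genes and a threshold of 0.05. In the double knockdown 6 of 28 members passed against siCon (21.4%), beside 14.0% of all tested genes. Of these 2 were higher, beside 6.90% of all tested genes, and 4 were lower, beside 7.13%. With siHnf4a 8 of 28 passed (28.6%), beside 14.5% of all tested genes, 4 of them higher, beside 7.24%, and 4 lower, beside 7.29%. With siCebpa 0 of 28 passed, beside 4.67% of all tested genes, while 4 members had an unadjusted p under 0.05 and DESeq2 passed 1 (Abcc2). Shares of all tested genes at the unadjusted threshold were not counted, here or below. The 3 libraries of a group did not overlap those of siCon for 13 members in the double knockdown (46.4%, beside 32.8% of all tested genes), 13 with siHnf4a (46.4%, beside 33.7%) and 4 with siCebpa (14.3%, beside 23.7%).

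Because libraries with the same number, read as 1 mouse, deviated together, the same model was also fitted with mouse as a block. Then 18 of 28 members (64.3%) passed in the double knockdown, beside 29.5% of all tested genes, 7 of them higher (beside 13.8%) and 11 lower (beside 15.6%). With siHnf4a 17 (60.7%) passed, beside 30.0%, 12 of them higher (beside 14.5%) and 5 lower (beside 15.5%). With siCebpa 7 (25%) passed, beside 16.8%, 2 of them higher (beside 8.73%) and 5 lower (beside 8.11%). The median log2 fold change of the tested members was -0.25 in the double knockdown, 0.27 with siHnf4a and -0.33 with siCebpa, against a median over all tested genes of 0.00 in each. Members without a pass are given below by their values, and where the fit with the block passed a member that the fit without it did not, both values are given. A ± sign beside a log2 fold change gives its standard error, and beside a level the SD.

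**Figure D2:**
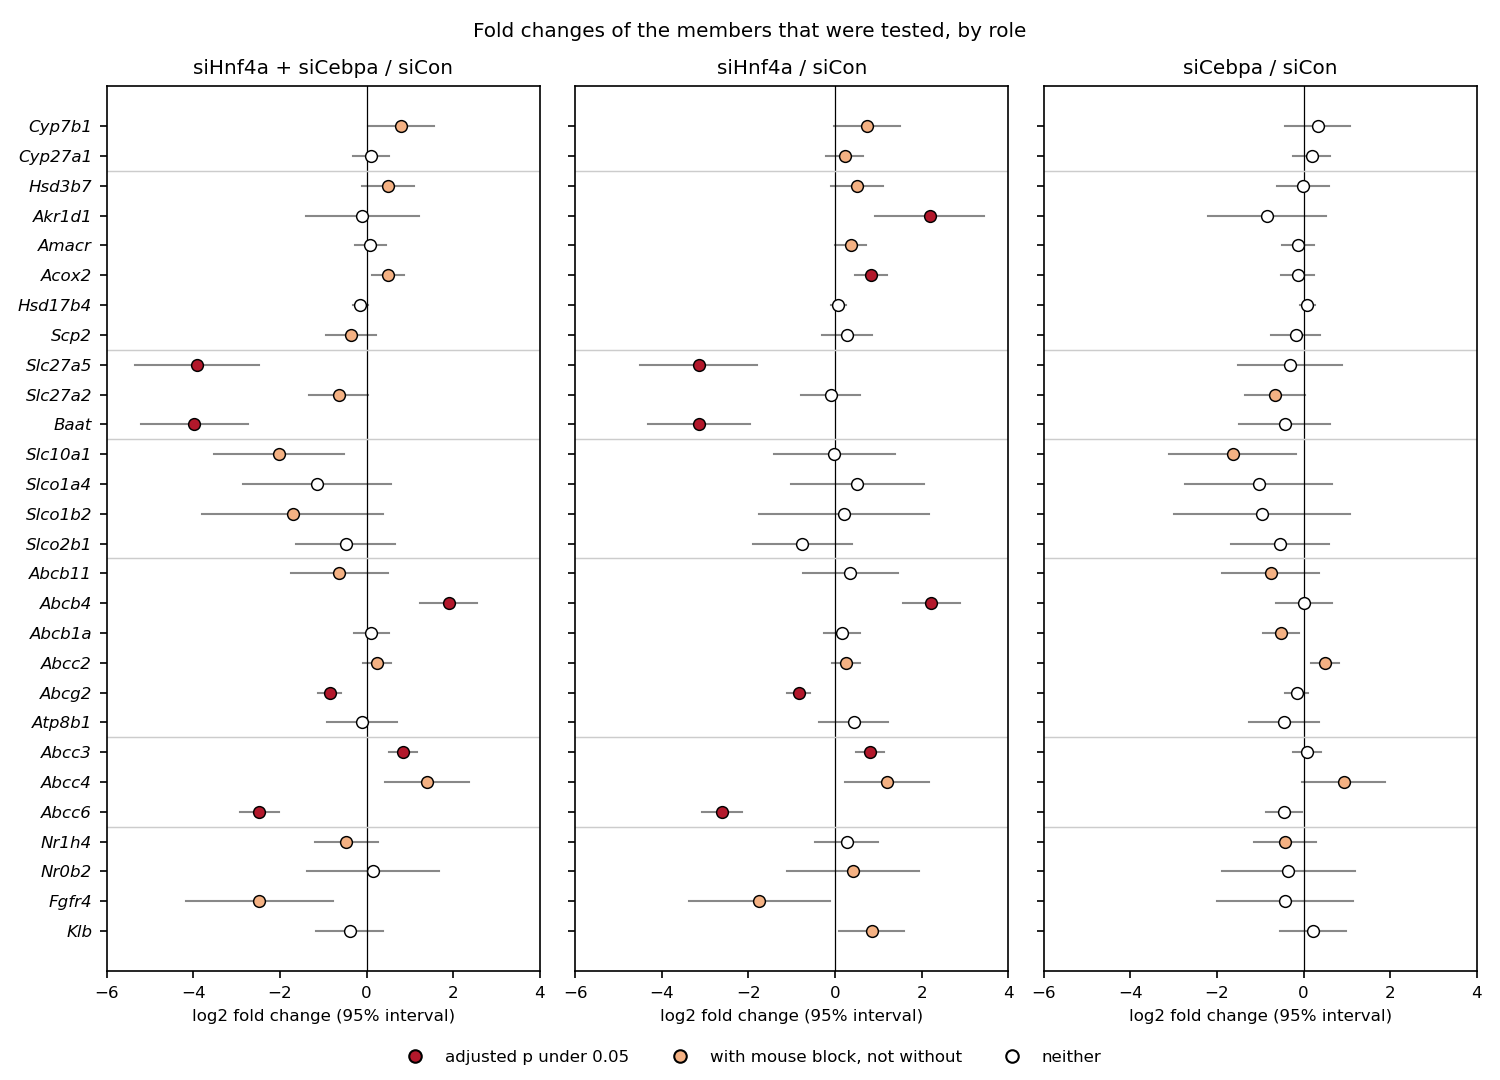
Log2 fold change against siCon (x axis) of the 28 tested members in role order, with 95% intervals from the model without the block, for the double knockdown (left), siHnf4a (middle) and siCebpa (right). Red points passed the threshold (6, 8 and 0 members), orange points passed in the same edgeR model with mouse as a block but not without it, and white points passed in neither of these fits.

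Among the hydroxylases, Cyp27a1, which opens the alternative pathway in mitochondria, carried 93.7% of the summed TPM of the role in siCon. Cyp27a1 measured 105, 81.3 and 70.4 CPM in the double knockdown, 114, 84.4 and 79.4 with siHnf4a, 109, 82.3 and 81.2 with siCebpa, and 93.9, 77.0 and 67.9 with siCon. The 4 groups overlapped, and mouse 1 was highest in each. Its log2 fold change against siCon was 0.10 ± 0.19 in the double knockdown (adjusted p = 0.776), 0.22 ± 0.19 with siHnf4a (adjusted p = 0.497) and 0.19 ± 0.19 with siCebpa (adjusted p = 0.638). With the block the siHnf4a value was 0.21 ± 0.06 (adjusted p = 0.0236).

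Cyp7b1, the oxysterol hydroxylase of the alternative pathway, measured 13.2, 10.6 and 11.1 CPM in the double knockdown, 13.2, 10.5 and 9.95 with siHnf4a, 12.1, 7.93 and 5.22 with siCebpa, and 10.5, 5.32 and 4.34 with siCon. The double knockdown libraries lay above the siCon range, and those of siHnf4a and siCebpa overlapped it. The log2 fold change was 0.79 ± 0.34 in the double knockdown (adjusted p = 0.158) and 0.74 ± 0.34 with siHnf4a (adjusted p = 0.184). With the block both passed, at 0.87 ± 0.19 (adjusted p = 0.00704) and 0.81 ± 0.19 (adjusted p = 0.00996). Without siCon replicate 1, Cyp7b1 passed without a block too, at 1.26 in the double knockdown and 1.21 with siHnf4a. With the block counted, each value passed in 2 of 12 alternative fits. The highest adjusted p among the 12 was 0.407 in the double knockdown and 0.451 with siHnf4a.

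Cyp7a1, the rate-limiting enzyme of the classic pathway, and Cyp8b1, which directs synthesis toward cholic acid, had few counts. Cyp7a1 had 6, 1 and 0 estimated counts in the double knockdown, 14, 23 and 0 with siHnf4a, 7, 0 and 0 with siCebpa, and 9, 6 and 2 with siCon. Cyp8b1 had 5 counts in all over the 3 double knockdown libraries, 8 with siHnf4a, 11 with siCebpa and 19 with siCon. Neither gene passed the filter, neither passed against siCon when the filter was left out, and a library with 0 counts of Cyp7a1 allows up to 3.

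Of the 6 enzymes of ring and side chain, Acox2 and Akr1d1 rose with siHnf4a, and in the edgeR fit without the block none passed in the double knockdown or with siCebpa. Acox2 (GRCm38 chr14:8225511-8259353, minus strand), the peroxisomal oxidase that begins side-chain shortening, measured 146, 132 and 104 CPM in the double knockdown, 188.5, 168 and 128 with siHnf4a, 97.9, 70.8 and 78.1 with siCebpa, and 84.7, 97.1 and 89.4 with siCon. All libraries with Hnf4a siRNA lay above the siCon range. The log2 fold change was 0.84 ± 0.17 with siHnf4a (adjusted p = 0.00891) and 0.50 ± 0.17 in the double knockdown (adjusted p = 0.0773, against 0.0166 with the block and 0.0440 in DESeq2). Those were the only 2 of 12 alternative fits in which the double knockdown value passed. With siCebpa it was -0.14 ± 0.17 (adjusted p = 0.715).

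Akr1d1 (GRCm38 chr6:37530173-37568815, plus strand), which reduces the double bond of the sterol ring, was low throughout. It measured 0.835, 1.08 and 0.430 CPM in the double knockdown, 2.66, 7.16 and 1.64 with siHnf4a, 0.389, 0.300 and 0.708 with siCebpa, and 1.19, 0.806 and 0.510 with siCon. In CPM the siHnf4a libraries lay above all others, and mouse 2 was the highest of them. In TPM the siHnf4a library of mouse 3 (1.181) lay below the siCon libraries of mouse 1 (1.231) and mouse 3 (1.189). Akr1d1 rose with siHnf4a by 2.18 ± 0.57 on the log2 scale (adjusted p = 0.0269). The call was lost without siHnf4a replicate 2 (1.36, adjusted p = 0.120), without siCon replicate 2 (2.16, adjusted p = 0.0965) and without siCon replicate 3 (1.93, adjusted p = 0.105). On log2(TPM + 1) the difference was 0.70 ± 0.33 (adjusted p = 0.204, limma-trend). In the double knockdown the log2 fold change was -0.10 ± 0.59 (adjusted p = 0.933).

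The other 4 enzymes of this role did not pass in the edgeR fit without the block. Hsd3b7, which oxidises and isomerises the sterol ring, measured 106, 77.0 and 58.9 CPM in the double knockdown, 103, 72.8 and 68.1 with siHnf4a, 78.5, 53.6 and 37.5 with siCebpa, and 63.5, 56.6 and 51.2 with siCon. Its log2 fold changes of 0.50 ± 0.27 in the double knockdown and 0.51 ± 0.27 with siHnf4a passed with the block but not without it (0.46, adjusted p = 0.0140, and 0.48, adjusted p = 0.0101). Hsd3b7 is uncertain, because 88.8% of its 31-base words occur in other annotated genes, most of them in the overlapping Gm49388. Amacr, the racemase that prepares the side chain, had 0.36 ± 0.17 with siHnf4a (adjusted p = 0.182; with the block 0.35, adjusted p = 0.0423). Scp2, the thiolase and sterol carrier of peroxisomes, had -0.36 ± 0.26 in the double knockdown (adjusted p = 0.414; with the block -0.37, adjusted p = 0.0355), and 33.4% of its words are shared with the pseudogene Scp2-ps2. Hsd17b4, the bifunctional enzyme of side-chain shortening, averaged 91.5 ± 3.03 CPM in the double knockdown, 106.5 ± 4.40 with siHnf4a, 107.5 ± 8.64 with siCebpa and 101 ± 5.70 with siCon (SD). Hsd17b4 passed against siCon neither with nor without the block, and its log2 fold changes lay between -0.14 and 0.09.

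Of the 3 activating and conjugating enzymes, Baat and Slc27a5 fell to a small share of their control level with Hnf4a siRNA. Baat (ENSMUSG00000039653.9, GRCm38 chr4:49489422-49506557, minus strand), the transferase that joins bile acids to taurine or glycine, measured 2.11, 1.13 and 0.816 CPM in the double knockdown, 2.90, 3.37 and 0.987 with siHnf4a, 25.9, 11.9 and 9.83 with siCebpa, and 29.0, 21.5 and 13.8 with siCon. Every library with Hnf4a siRNA lay below every library without it, and within each group mouse 3 was lowest. Baat fell to 6.36% of siCon in the double knockdown (log2 fold change -3.98 ± 0.56, adjusted p = 0.00115) and to 11.3% with siHnf4a (-3.14 ± 0.53, adjusted p = 0.00336). With siCebpa the log2 fold change was -0.43 ± 0.48 (adjusted p = 0.677), and the range overlapped siCon.

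Slc27a5 (ENSMUSG00000030382.15, GRCm38 chr7:12988346-12998192, minus strand), the bile acid CoA ligase that supplies Baat with its substrate, measured 1.15, 0.476 and 0.387 CPM in the double knockdown, 1.59, 1.27 and 0.576 with siHnf4a, 16.2, 4.80 and 3.72 with siCebpa, and 13.4, 9.31 and 7.99 with siCon. Again every library with Hnf4a siRNA lay below every library without it. Slc27a5 fell to 6.65% of siCon in the double knockdown (-3.91 ± 0.65, adjusted p = 0.00290) and to 11.2% with siHnf4a (-3.15 ± 0.62, adjusted p = 0.00738), while siCebpa gave -0.31 ± 0.55 (adjusted p = 0.805). On log2(TPM + 1), a scale that understates changes of low genes, the values were -2.57 in the double knockdown and -2.11 with siHnf4a, and both passed.

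Slc27a2, an acyl-CoA synthetase of very long-chain fatty acids that also acts on bile acid precursors, measured 18.9, 14.7 and 12.9 CPM in the double knockdown, 26.2, 25.1 and 16.4 with siHnf4a, 24.2, 12.5 and 9.43 with siCebpa, and 26.1, 26.7 and 19.8 with siCon. The double knockdown lay below the siCon range and the single knockdowns overlapped it. The log2 fold change was -0.64 ± 0.31 in the double knockdown (adjusted p = 0.206; with the block -0.66, adjusted p = 0.0172), -0.10 ± 0.31 with siHnf4a (adjusted p = 0.873) and -0.66 ± 0.31 with siCebpa (adjusted p = 0.270; with the block -0.73, adjusted p = 0.0190). Without siCebpa replicate 1 the siCebpa value was -1.14 and passed without a block (adjusted p = 0.0318). With the block counted, the siCebpa value passed in 2 of 12 alternative fits, and the highest adjusted p among the 12 was 0.541. Summed over these 3 genes, the level was 11.1 ± 3.35 TPM in the double knockdown, 17.5 ± 4.82 with siHnf4a, 25.3 ± 15.2 with siCebpa and 39.8 ± 10.1 with siCon (SD).

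**Figure D3:**
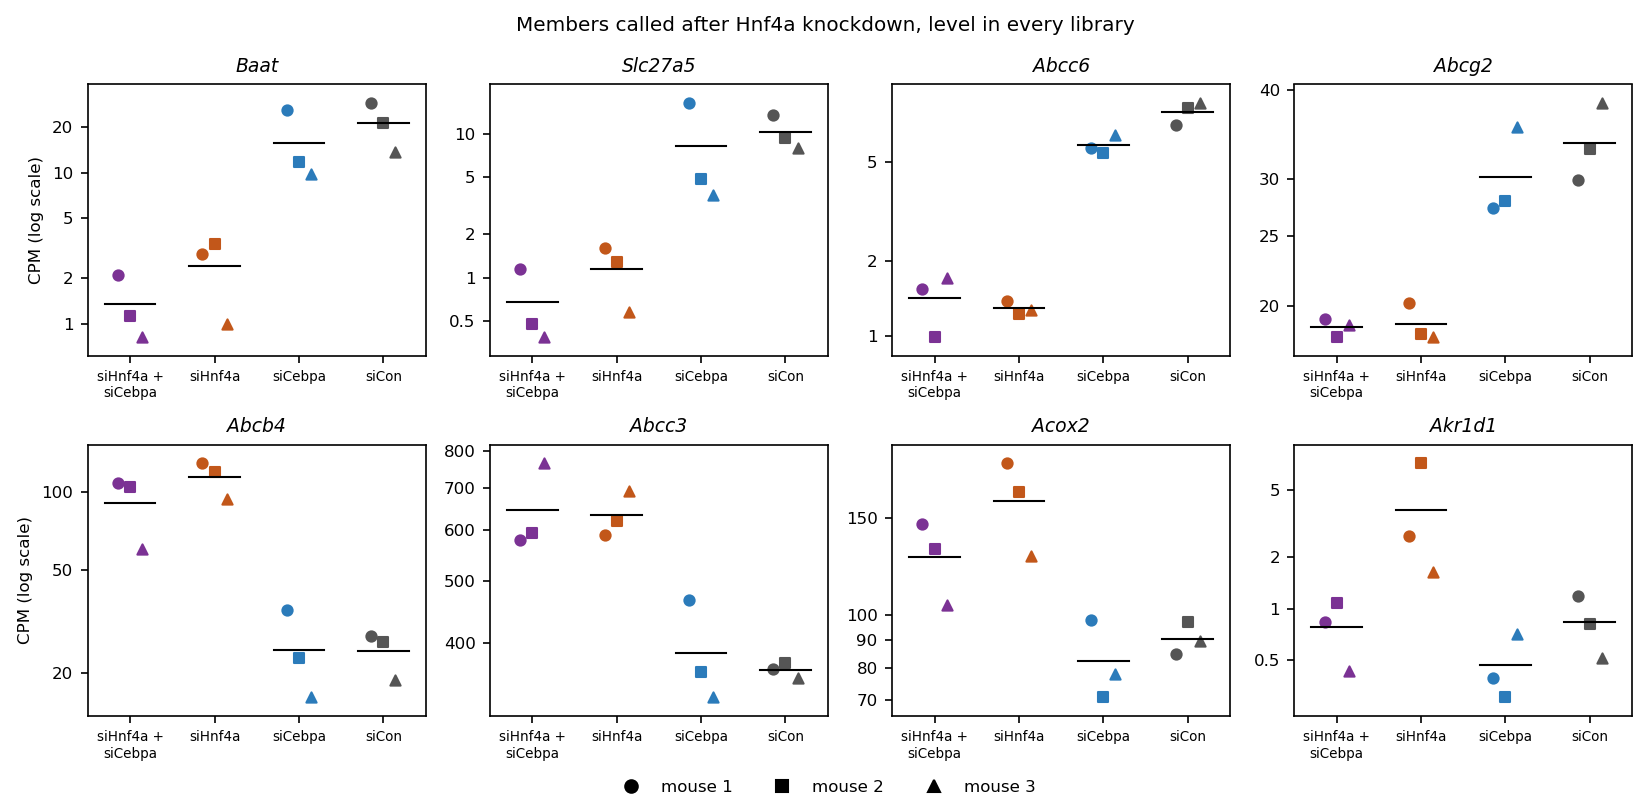
CPM of 8 members that passed against siCon after Hnf4a siRNA (y axis, log scale), in the double knockdown, siHnf4a, siCebpa and siCon groups, with 1 marker shape per mouse and a bar at the group mean. Baat lies at 0.816 to 3.37 CPM with Hnf4a siRNA and at 9.83 to 29.0 CPM without it, and Abcb4 at 60.0 to 128.5 CPM with it and at 16.2 to 34.9 CPM without it.

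No sinusoidal uptake carrier passed in the edgeR fit without the block, and Slc10a1 passed in the double knockdown in 4 of 12 alternative fits. Slc10a1, the sodium-dependent taurocholate carrier NTCP, measured 1.31, 0.779 and 0.644 CPM in the double knockdown, 4.49, 5.51 and 1.11 with siHnf4a, 2.20, 1.07 and 0.310 with siCebpa, and 4.21, 4.76 and 2.25 with siCon. The double knockdown and siCebpa libraries lay below the siCon range, and the siHnf4a libraries overlapped it. The log2 fold change was -2.03 ± 0.68 in the double knockdown (adjusted p = 0.0735), -0.01 ± 0.63 with siHnf4a (adjusted p = 0.994) and -1.64 ± 0.67 with siCebpa (adjusted p = 0.196). With the block the double knockdown (-2.05 ± 0.38, adjusted p = 0.00251) and siCebpa (-1.78 ± 0.37, adjusted p = 0.00905) passed. Slc10a1 also passed in the double knockdown without a block in DESeq2 (-2.03, adjusted p = 0.0161), without the filter (adjusted p = 0.0435) and with only the compared groups fitted (adjusted p = 0.0196). It did not pass in the rest of the 12 alternative fits, where the adjusted p reached 0.201. Whether the siHnf4a and siCebpa effects differ was tested directly, and siHnf4a over siCebpa was 1.63 ± 0.67 (adjusted p = 0.126; with the block 1.63 ± 0.37, adjusted p = 0.00708).

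Slco1b2, the liver OATP, measured 2.15, 0.563 and 0.172 CPM in the double knockdown, 4.26, 5.96 and 0.822 with siHnf4a, 3.59, 0.815 and 0.487 with siCebpa, and 4.76, 2.94 and 1.83 with siCon. All groups overlapped siCon, and mouse 3 was lowest in each group. The double knockdown value of -1.71 ± 0.95 (adjusted p = 0.272) passed with the block but not without it (-1.98 ± 0.53, adjusted p = 0.0172). Without siHnf4a_siCebpa replicate 1 the Slco1b2 value was -3.11, and on log2(TPM + 1) it was -0.77, neither past the threshold. Slco1a4 and Slco2b1, further OATPs, reached at most 1.32 and 7.14 CPM in any library and passed neither with nor without the block against siCon. Slco1a1, untested, had 13 counts in the double knockdown, 19 with siHnf4a, 14 with siCebpa and 22 with siCon. Summed over the 5 carriers the level was 3.11 ± 1.15 TPM in the double knockdown, 7.47 ± 3.61 with siHnf4a, 3.30 ± 2.31 with siCebpa and 7.49 ± 2.69 with siCon (SD).

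**Figure D4:**
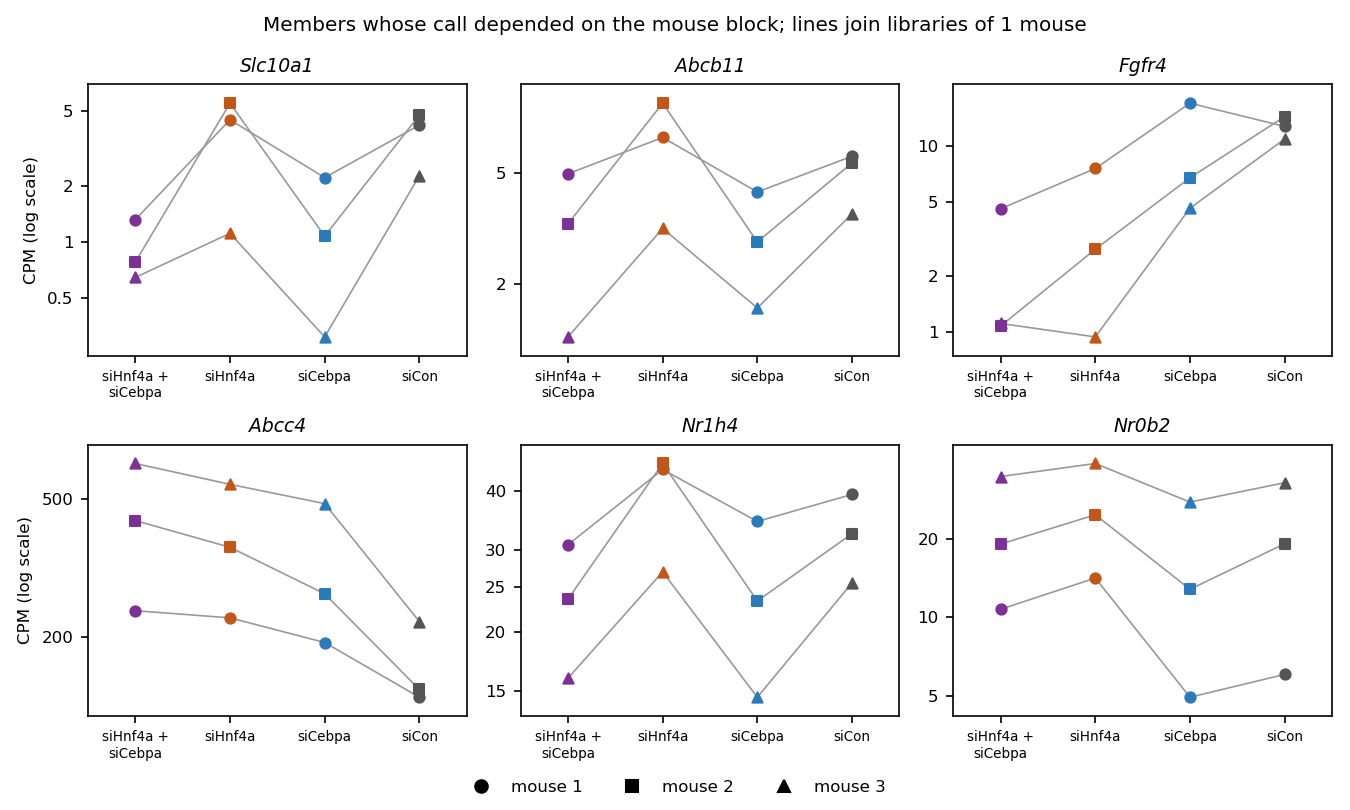
CPM of 6 members with a value against siCon that passed in the edgeR fit with mouse as a block but not without it (y axis, log scale), with lines joining the 4 libraries of 1 mouse. In all 3 mice Slc10a1 and Abcb11 are lower in the double knockdown and with siCebpa than with siCon, and Abcc4 is higher in the 3 knockdown groups.

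At the canalicular membrane 1 gene rose, 1 fell and 4 did not pass with Hnf4a siRNA in the edgeR fit without the block. With the block Abcc2 passed in both groups with Hnf4a siRNA, and Abcb11 passed in the double knockdown. Abcb4 (ENSMUSG00000042476.12, GRCm38 chr5:8893717-8959231, plus strand), the transporter that supplies bile with phosphatidylcholine, measured 108, 104 and 60.0 CPM in the double knockdown, 128.5, 119 and 93.8 with siHnf4a, 34.9, 22.8 and 16.2 with siCebpa, and 27.9, 26.4 and 18.8 with siCon. All 6 libraries with Hnf4a siRNA lay above all libraries without it. Abcb4 rose 3.72-fold in the double knockdown (log2 fold change 1.90 ± 0.30, adjusted p = 0.00209) and 4.66-fold with siHnf4a (2.22 ± 0.30, adjusted p = 0.000926), and the siCebpa value was 0.01 ± 0.29 (adjusted p = 0.985).

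Abcg2 (ENSMUSG00000029802.13, GRCm38 chr6:58584523-58695676, plus strand), an efflux pump for sulfated conjugates and urate, measured 19.1, 18.1 and 18.8 CPM in the double knockdown, 20.2, 18.3 and 18.1 with siHnf4a, 27.4, 28.0 and 35.4 with siCebpa, and 29.9, 33.1 and 38.3 with siCon. The groups with Hnf4a siRNA did not overlap the others. Abcg2 fell to 55.4% of siCon in the double knockdown (-0.85 ± 0.12, adjusted p = 0.00113) and to 55.8% with siHnf4a (-0.84 ± 0.12, adjusted p = 0.00130), and siCebpa gave -0.16 ± 0.12 (adjusted p = 0.512).

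Abcb11, the bile salt export pump, measured 4.97, 3.29 and 1.29 CPM in the double knockdown, 6.72, 8.93 and 3.17 with siHnf4a, 4.28, 2.83 and 1.64 with siCebpa, and 5.75, 5.44 and 3.57 with siCon. Every group overlapped siCon, while within each mouse the double knockdown and siCebpa libraries were lower than siCon. The values of -0.63 ± 0.51 in the double knockdown (adjusted p = 0.461) and -0.75 ± 0.51 with siCebpa (adjusted p = 0.453) passed with the block but not without it (-0.73, adjusted p = 0.0441, and -0.82, adjusted p = 0.0451). With siHnf4a the value was 0.35 ± 0.50 (adjusted p = 0.695).

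Abcc2, the pump for bilirubin glucuronides and other conjugates, measured 135, 150.2 and 170.4 CPM in the double knockdown, 142, 156 and 164 with siHnf4a, 158, 170.4 and 215 with siCebpa, and 112, 122 and 153.5 with siCon. The siCebpa range lay above the siCon range. The siCebpa log2 fold change of 0.49 ± 0.15 (adjusted p = 0.0917) passed with the block (0.49 ± 0.07, adjusted p = 0.00159). With the block the double knockdown (0.24, adjusted p = 0.0256) and siHnf4a (0.26, adjusted p = 0.0163) passed too. The deposited TPM, which account for transcript length, did not show these differences, at 42.2 ± 3.16 in the double knockdown, 39.7 ± 1.50 with siHnf4a, 39.5 ± 5.27 with siCebpa and 39.1 ± 9.09 with siCon (SD). On log2(TPM + 1) the siCebpa difference was 0.03 ± 0.15 (adjusted p = 0.932, limma-trend).

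Abcb1a, a P-glycoprotein gene, averaged 19.7 ± 4.20 CPM in the double knockdown, 20.4 ± 3.95 with siHnf4a, 12.7 ± 1.41 with siCebpa and 18.3 ± 2.24 with siCon (SD). Its siCebpa libraries of 13.3, 13.8 and 11.1 CPM lay below all others, with a log2 fold change against siCon of -0.52 ± 0.19 (adjusted p = 0.145; with the block -0.51, adjusted p = 0.0344). Against siCebpa it was higher in the double knockdown (0.63 ± 0.19, adjusted p = 0.0494) and with siHnf4a (0.68 ± 0.19, adjusted p = 0.0324), and 21.7% of its words are shared with Abcb1b. Both calls were lost when single libraries were left out. Atp8b1, the aminophospholipid flippase of the canaliculus, averaged 10.7 ± 2.15 CPM in the double knockdown, 15.5 ± 6.34 with siHnf4a, 8.37 ± 4.33 with siCebpa and 11.5 ± 0.717 with siCon (SD), and passed neither with nor without the block against siCon.

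Among the basolateral pumps Abcc3 rose and Abcc6 fell with Hnf4a siRNA. Abcc3 (ENSMUSG00000020865.16, GRCm38 chr11:94343295-94392997, minus strand), which exports glucuronides and bile salts to blood, measured 580, 595 and 764 CPM in the double knockdown, 589, 620 and 691.5 with siHnf4a, 467, 359 and 328 with siCebpa, and 364, 372 and 351 with siCon. The groups with Hnf4a siRNA lay above all other libraries. Abcc3 rose 1.78-fold in the double knockdown (0.84 ± 0.15, adjusted p = 0.00380) and 1.75-fold with siHnf4a (0.81 ± 0.15, adjusted p = 0.00492), and siCebpa gave 0.09 ± 0.15 (adjusted p = 0.795).

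Abcc6 (ENSMUSG00000030834.7, GRCm38 chr7:45967555-46030302, minus strand), the transporter whose loss causes pseudoxanthoma elasticum, measured 1.55, 0.995 and 1.72 CPM in the double knockdown, 1.39, 1.23 and 1.27 with siHnf4a, 5.66, 5.45 and 6.42 with siCebpa, and 7.02, 8.22 and 8.59 with siCon. The siCebpa range lay below the siCon range and above both groups with Hnf4a siRNA. Abcc6 fell to 18.0% of siCon in the double knockdown (-2.48 ± 0.21, adjusted p = 4.04e-05) and to 16.4% with siHnf4a (-2.61 ± 0.21, adjusted p = 4.03e-05), and siCebpa gave -0.44 ± 0.19 (adjusted p = 0.220). The fall was smaller in the deposited TPM. These averaged 1.94 ± 0.519 in the double knockdown, 2.14 ± 1.28 with siHnf4a, 4.45 ± 1.60 with siCebpa and 5.38 ± 1.30 with siCon (SD). In TPM the siHnf4a library of mouse 1 (3.561) lay above the siCebpa library of mouse 2 (3.455). On log2(TPM + 1) the Abcc6 values were -1.11 in the double knockdown (adjusted p = 0.0393) and -1.08 with siHnf4a (adjusted p = 0.0429, limma-trend). The cause of the difference between CPM and TPM was not tested.

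Abcc4, a pump for bile salts and cyclic nucleotides, measured 238, 433 and 633 CPM in the double knockdown, 227, 363 and 551 with siHnf4a, 193, 266 and 485 with siCebpa, and 134, 141 and 221 with siCon. Both groups with Hnf4a siRNA lay above the siCon range, and mouse 3 was highest in each group. The log2 fold changes of 1.39 ± 0.44 in the double knockdown (adjusted p = 0.0593), 1.20 ± 0.44 with siHnf4a (adjusted p = 0.0959) and 0.93 ± 0.44 with siCebpa (adjusted p = 0.266) passed with the block but not without it. With the block they were 1.31 ± 0.14 (adjusted p = 7.05e-05), 1.13 ± 0.14 (adjusted p = 0.000182) and 0.84 ± 0.14 (adjusted p = 0.00266). Abcc4 also passed in the double knockdown without a block in DESeq2 (1.39, adjusted p = 0.0322), without the filter (adjusted p = 0.0213) and without siHnf4a_siCebpa replicate 1 (1.68, adjusted p = 0.0335). With the block counted, this value passed in 4 of 12 alternative fits, and the highest adjusted p among the 12 was 0.187.

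Slc51a and Slc51b encode the subunits of the organic solute transporter OST, which works as a heterodimer. Slc51b had 0, 1 and 3 estimated counts in the double knockdown, 1, 2 and 1 with siHnf4a, 4, 4 and 3 with siCebpa, and 4, 15 and 18 with siCon. Both groups with Hnf4a siRNA lay below siCon. Without the filter on low counts Slc51b passed in the double knockdown (adjusted p = 0.0232) and with siHnf4a (adjusted p = 0.0214). Slc51b overlaps Rasl12 on the opposite strand, with which it shares 9.13% of its words, so its counts are uncertain. Slc51a had 23.3 counts in all in the double knockdown, 26.8 with siHnf4a, 19.1 with siCebpa and 20.9 with siCon, and it overlaps Pcyt1a on the opposite strand, with which it shares 16.8% of its words. Summed over the role, basolateral carriers came to 343 ± 97.4 TPM in the double knockdown, 322 ± 83.8 with siHnf4a, 214 ± 18.6 with siCebpa and 175 ± 10.2 with siCon (SD).

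No regulator passed in the edgeR fit without the block, and Fgfr4 passed in the double knockdown in 6 of 12 alternative fits. Nr1h4, encoding FXR, measured 30.7, 23.5 and 16.0 CPM in the double knockdown, 44.4, 45.7 and 26.9 with siHnf4a, 34.4, 23.3 and 14.6 with siCebpa, and 39.3, 32.4 and 25.5 with siCon. Within every mouse the double knockdown and siCebpa libraries were lower than siCon and the siHnf4a library was higher. The values of -0.47 ± 0.33 in the double knockdown (adjusted p = 0.393) and -0.43 ± 0.33 with siCebpa (adjusted p = 0.524) passed with the block but not without it (-0.50, adjusted p = 0.0112, and -0.48, adjusted p = 0.0228), and siHnf4a gave 0.27 ± 0.33 (adjusted p = 0.638).

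Nr0b2, encoding SHP, measured 10.7, 19.1 and 34.8 CPM in the double knockdown, 14.2, 24.8 and 39.1 with siHnf4a, 4.93, 12.8 and 27.8 with siCebpa, and 6.03, 19.2 and 32.95 with siCon. Mouse 1 was lowest and mouse 3 highest in all 4 groups, and the spread between mice exceeded that between groups. The siHnf4a value of 0.42 ± 0.69 (adjusted p = 0.737) passed with the block but not without it (0.58 ± 0.18, adjusted p = 0.0346). In the double knockdown the log2 fold change was 0.15 ± 0.69 (adjusted p = 0.910) and with siCebpa -0.35 ± 0.70 (adjusted p = 0.830).

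Fgfr4, the receptor for FGF15, measured 4.61, 1.08 and 1.12 CPM in the double knockdown, 7.60, 2.80 and 0.946 with siHnf4a, 17.0, 6.77 and 4.65 with siCebpa, and 12.8, 14.4 and 10.9 with siCon. Both groups with Hnf4a siRNA lay below the siCon range, and the siCebpa libraries overlapped it. The log2 fold change was -2.48 ± 0.77 in the double knockdown (adjusted p = 0.0550) and -1.75 ± 0.74 with siHnf4a (adjusted p = 0.146). With the block these were -2.82 ± 0.43 (adjusted p = 0.000787) and -2.14 ± 0.41 (adjusted p = 0.00299). Without a block Fgfr4 passed in the double knockdown in DESeq2 (-2.48, adjusted p = 0.0218), without the filter (adjusted p = 0.0208), with only the compared groups fitted (adjusted p = 0.0311), on log2(TPM + 1) (-1.80, adjusted p = 0.0365) and without siHnf4a_siCebpa replicate 1 (-3.53, adjusted p = 0.0272). In the rest of the 12 alternative fits it did not pass, and the adjusted p reached 0.175.

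Klb, encoding the co-receptor beta-Klotho, measured 1.39, 1.56 and 0.516 CPM in the double knockdown, 3.42, 2.51 and 2.26 with siHnf4a, 2.16, 1.50 and 1.64 with siCebpa, and 1.59, 1.61 and 1.36 with siCon. The siHnf4a libraries lay above the siCon range. The siHnf4a value was 0.84 ± 0.34 (adjusted p = 0.132; with the block 0.83 ± 0.27, adjusted p = 0.0387).

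The groups with Hnf4a siRNA were also set against siCebpa. In the double knockdown against siCebpa 8 of 28 passed (28.6%), beside 13.0% of all tested genes, 4 of them higher (beside 6.51%) and 4 lower (beside 6.47%). With siHnf4a against siCebpa 9 passed (32.1%), beside 16.2%, 5 of them higher (beside 7.51%) and 4 lower (beside 8.67%). Ranges did not overlap for 10 members in the double knockdown (beside 29.0%) and 11 with siHnf4a (beside 32.4%). Baat, Slc27a5, Abcb4, Abcg2, Abcc3 and Abcc6 passed in both and against siCon, though these comparisons share samples. Akr1d1 was higher with siHnf4a than with siCebpa (3.03 ± 0.61, adjusted p = 0.00773). Acox2 was higher than with siCebpa in the double knockdown (0.63 ± 0.17, adjusted p = 0.0338) and with siHnf4a (0.97 ± 0.17, adjusted p = 0.00387). With the block 14 and 21 members passed, beside 27.3% and 31.2% of all tested genes.

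Adding Cebpa siRNA to Hnf4a siRNA moved no member past the threshold. In the double knockdown against siHnf4a 0 of 28 passed in edgeR, with and without the block, and in DESeq2. Of all tested genes 1 passed in edgeR (0.00663%), and that was Cebpa, the target of the added siRNA. Among the members 6 had an unadjusted p under 0.05. Akr1d1 measured 0.835, 1.08 and 0.430 CPM in the double knockdown, against 2.66, 7.16 and 1.64 with siHnf4a, and the log2 fold change was -2.28 ± 0.57 (adjusted p = 1.00). Slc10a1 had -2.01 ± 0.68, Klb -1.24 ± 0.35, Nr1h4 -0.74 ± 0.33, Scp2 -0.62 ± 0.26 and Hsd17b4 -0.22 ± 0.08, each with an adjusted p of 1.00. In the ranges, Akr1d1, Hsd17b4 and Klb lay below siHnf4a and Slco2b1 above it, which is 4 members (14.3%) beside 7.48% of all tested genes. The interaction, which asks whether the double knockdown departs from the sum of the single ones, passed for 0 of 28 members in edgeR and in DESeq2, beside 0.0861%, and 3 had an unadjusted p under 0.05. Those were Klb (-1.45 ± 0.49), Abcc2 (-0.50 ± 0.21) and Hsd17b4 (-0.31 ± 0.11). With the block Abcc2 passed (-0.51, adjusted p = 0.0220), beside 3.82% of all tested genes. Since Cebpa was lowered less in the double knockdown, its comparison with the single knockdowns also differs in the depth of Cebpa loss. Hnf4a did not pass between the double knockdown and siHnf4a (log2 fold change -0.59 ± 0.28), but it was lower in all 3 mice. The 2 groups may therefore differ in the depth of Hnf4a loss too.

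Genes around the module, taken from lists of other bile acid enzymes, carriers and regulators, are given by count. Of 15 other bile acid enzymes tested, 1 rose and 2 fell in the double knockdown (20%, beside 14.0% of all tested genes), 1 rose and 2 fell with siHnf4a (20%, beside 14.5%), and 1 rose with siCebpa (6.67%, beside 4.67%). Cyp2a12, which rehydroxylates bile acids in mice, averaged 2.56 ± 0.647 CPM in the double knockdown and 3.47 ± 1.97 with siHnf4a, against 89.6 ± 31.4 with siCon (SD). Its log2 fold change was -5.13 ± 0.54 in the double knockdown (adjusted p = 0.000209) and -4.69 ± 0.52 with siHnf4a (adjusted p = 0.000326). Cyp2c70, which makes muricholic acids in mice, fell in the double knockdown (-2.46 ± 0.48, adjusted p = 0.00695) and with siHnf4a (-1.72 ± 0.47, adjusted p = 0.0318). Akr1c14, a hydroxysteroid dehydrogenase, rose with siHnf4a (0.83 ± 0.23, adjusted p = 0.0339), and Acot8, a peroxisomal thioesterase, rose in the double knockdown (0.48 ± 0.14, adjusted p = 0.0434). Ephx1, a microsomal epoxide hydrolase, rose by 0.54 ± 0.12 with siCebpa (adjusted p = 0.0325).

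Of 24 other carriers and canalicular proteins tested, 2 rose and 3 fell in the double knockdown (20.8%, beside 14.0% of all tested genes), 3 rose and 2 fell with siHnf4a (20.8%, beside 14.5%), and 1 fell with siCebpa (4.17%, beside 4.67%). Slc10a5, a relative of Slc10a1, averaged 0.152 ± 0.0948 CPM in the double knockdown and 0.242 ± 0.158 with siHnf4a, against 1.40 ± 0.203 with siCon (SD), with log2 fold changes of -3.15 ± 0.54 (adjusted p = 0.00355) and -2.50 ± 0.51 (adjusted p = 0.00906). Abcc1, a further basolateral pump, rose by 0.93 ± 0.22 in the double knockdown (adjusted p = 0.0184) and by 0.74 ± 0.22 with siHnf4a (adjusted p = 0.0488). Rab11a, a GTPase of recycling endosomes, rose by 0.50 ± 0.10 in the double knockdown (adjusted p = 0.00980) and with siHnf4a the value was 0.45 ± 0.10 (adjusted p = 0.0167). Fabp1, the liver fatty acid binding protein, fell by 3.17 in the double knockdown (adjusted p = 0.0466). Abcg5, a subunit of the canalicular sterol exporter, rose by 1.78 with siHnf4a (adjusted p = 0.0370). Atp7b, the copper pump, fell by 1.01 with siCebpa (adjusted p = 0.0378).

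Of 22 other regulators tested, 1 rose and 4 fell in the double knockdown (22.7%, beside 14.0% of all tested genes), 1 rose and 3 fell with siHnf4a (18.2%, beside 14.5%), and 0 passed with siCebpa, beside 4.67%. Smarcd3, a subunit of SWI/SNF chromatin remodelling complexes, had -0.72 in the double knockdown (adjusted p = 0.0105) and -0.74 with siHnf4a (adjusted p = 0.00973). The retinoic acid receptor gene Rara had -0.65 in the double knockdown (adjusted p = 0.0381) and -0.71 with siHnf4a (adjusted p = 0.0259). Nr1i2, encoding the xenobiotic receptor PXR, fell by 1.16 in the double knockdown (adjusted p = 0.0116). Nr5a2, encoding LRH-1, rose by 0.65 ± 0.18 with siHnf4a (adjusted p = 0.0366), and its siCebpa value of -0.60 ± 0.18 (adjusted p = 0.0917) passed with the block but not without it (adjusted p = 0.00556). Sdc1, a heparan sulfate proteoglycan and the most abundant gene of the list, had -0.19 with siCebpa (adjusted p = 0.421). The median log2 fold change of the 3 lists lay between -0.17 and 0.04 across the comparisons of the knockdown groups with siCon.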

How the data were processed

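Total RNA of 12 libraries of mouse primary hepatocytes was sequenced on a BGISEQ-500, per the labels' protocols. The authors deposited estimated counts per gene (expected counts, partly fractional) and TPM for each library, and the submitters' processing notes name kallisto 0.4.6, Trim Galore 0.6.4 and GRCm38.p6. For annotation, strand setting and filters, nothing is stated in the sources used here, so reads of overlapping genes cannot be told apart. Symbols came from GENCODE by Ensembl identifier (55144 of 55385 matched). The list symbols Stard1 and Diet1 were not found.

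Groups came from sample titles, whose number was read as the mouse. Whole-number rounding came first. edgeR 4.0.16 (R 4.3.3) kept 15090 genes by filterByExpr (at least 0.42 CPM), scaled by TMM (0.947 to 1.038) and fitted 1 mean per group to all 12 libraries (8 residual degrees of freedom). All tests were two-sided quasi-likelihood contrasts adjusted by Benjamini-Hochberg over the 15090 genes. Same-numbered libraries were therefore taken to come from 1 mouse. Their residuals correlated with r of 0.16 to 0.68 over 18 pairs, and 12 of 12 libraries correlated best with a same-numbered library. The correlation does not show what the number stands for. The fit with mouse as a block (6 degrees of freedom) is given where it changes a call. Alternatives were DESeq2 1.42.0, RLE factors, no filter, only the compared groups, limma 3.58.1 on log2(TPM + 1) and leaving out each library. The model without the block was also run on simulated counts without mouse effects, so that run does not bear on the fit with the block. Members and lists were chosen with earlier results of these data known. All members are named, and of each other list, per comparison with siCon, up to 4 passing genes with the largest changes or, with 0 passing, the most abundant gene; 1 such gene is not reported here. Shared sequence was counted as exact 31-base words of annotated transcripts.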

Additional observations from a re-analysis of the deposited data

Results flagged for a closer look

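Abcc2 had a negative interaction with mouse as a block. The double knockdown lay below the sum of the single knockdowns by a log2 interaction of -0.51 ± 0.10 (adjusted p = 0.0220), and the model without the block gave -0.50 ± 0.21 (adjusted p = 0.447). Within mice 1, 2 and 3, Abcc2 was 0.27, 0.29 and 0.15 log2 units above siCon in the double knockdown, 0.34, 0.35 and 0.09 above it with siHnf4a, and 0.49, 0.47 and 0.48 above it with siCebpa. On log2(TPM + 1) the interaction was 0.0525 ± 0.22 (adjusted p = 0.957, limma-trend without the block), and the cause of that difference was not tested. Groups of 3 libraries were not screened for single outlying values.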

How the results depend on the processing

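Counts of members past the threshold moved by over 1.5 times in these settings. The share of all genes past the threshold in the same fit is given beside each count. With no filter and with DESeq2 that share is over 32685 genes, low ones included, against 15090 in the main fit. These shares are therefore not comparable with the others. In the double knockdown against siCon 2117 genes passed in the main fit, 1742 with no filter and 2683 with DESeq2. The double knockdown against siCon gave 6 (beside 14.0%). It gave 10 with no filter (beside 5.33%), 11 with DESeq2 (beside 8.21%) and 18 with the replicate block (beside 29.5%). With siHnf4a the count was 8 (beside 14.5%), against 17 with the block (beside 30.0%). With siCebpa it was 0 (beside 4.67%), against 1 with DESeq2 (beside 3.9%) and 7 with the block (beside 16.8%). The double knockdown against siCebpa gave 8 (beside 13.0%), 14 with the block (beside 27.3%) and 5 with only the compared groups fitted (beside 5.9%). For siHnf4a against siCebpa the count was 9 (beside 16.2%), against 21 with the block (beside 31.2%). The interaction gave 0 (beside 0.0861%), against 1 with the block (beside 3.82%). Leaving out each library gave 6 to 8 in the double knockdown, beside 7.86% to 13.3% of all genes. With siHnf4a it gave 7 to 10 (beside 7.28% to 13.9%). With siCebpa it gave 0 to 1 (Slc27a2, without siCebpa replicate 1), beside 0.74% to 5.18%. The double knockdown against siCebpa had 6 to 8 (beside 6.83% to 13.8%). For siHnf4a against siCebpa the range was 7 to 13 (beside 7.34% to 18.7%), with 13 and 18.7% without siCebpa replicate 1. The double knockdown against siHnf4a and the interaction had 0 to 0, beside at most 0.0065% and 0.111%.

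Of 31 called values of single members, 23 kept their call in every alternative, 26 kept it when each library was left out, and 0 changed sign. Akr1d1 also lost its siHnf4a call with only the compared groups fitted (2.18, adjusted p = 0.0559). Abcb1a in the double knockdown against siCebpa lost its call without siHnf4a_siCebpa replicates 2 (0.60, adjusted p = 0.133) or 3 (0.52, adjusted p = 0.150) and without siCebpa replicates 1 (0.67, adjusted p = 0.0736), 2 (0.70, adjusted p = 0.0807) or 3 (0.54, adjusted p = 0.160). With siHnf4a against siCebpa Abcb1a lost it without siHnf4a replicates 2 (0.60, adjusted p = 0.114) or 3 (0.63, adjusted p = 0.0845) and without siCebpa replicates 2 (0.75, adjusted p = 0.0598) or 3 (0.59, adjusted p = 0.116). Acox2 in the double knockdown against siCebpa lost it without siHnf4a_siCebpa replicates 1 (0.53, adjusted p = 0.105) or 2 (0.63, adjusted p = 0.0980) and without siCebpa replicates 2 (0.55, adjusted p = 0.117) or 3 (0.59, adjusted p = 0.107). Slc27a5 with siHnf4a against siCebpa also lost it without siHnf4a replicate 2 (-2.91). Of 118 values past the threshold neither with nor without the block, 56 changed sign in an alternative and 0 passed. Among 47 values that passed with the block but not without it, 5 changed sign. These were Abcc2 on log2(TPM + 1) in the double knockdown against siCebpa (0.10), siHnf4a against siCebpa (0.0165) and the interaction (0.0525), and Nr0b2 with siHnf4a against siCon without siCon replicate 1 (-0.00268, up to 1.04 without siCon replicate 3) and in the double knockdown against siCebpa without siHnf4a_siCebpa replicate 3 (-0.00303, up to 1.28 without siCebpa replicate 3). Abcc6 against siCebpa lost its calls on log2(TPM + 1) and Abcc3 in the double knockdown against siCebpa with only the compared groups fitted. The TPM scale moved the median of all genes by -0.12 with siCebpa against siCon and by 0.12 in the interaction. The cause was not tested.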
